A study of Ulva lactuca with 4 samples.

Results

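Ulva lactuca is a sheet-like green seaweed of the shore, whose thalli dry out at low tide and take up water again when the sea returns. Transcripts of its thalli were sequenced in 4 libraries, 1 per condition. The control thalli were kept submerged throughout, and the other libraries came from thalli desiccated at 20% moisture for 24 h, 36 h or 72 h. When the control was taken relative to these durations is not stated, and no replicates, genotype, strain or age are given for any group. This account concerns 37 clusters of assembled contigs in which, at a given duration, some contigs were at least 4-fold above the control while others of the same cluster were at least 4-fold below it. These clusters held 380 of the 105451 contigs and were 37 of 70737 clusters, of which 10865 had at least 2 contigs.

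A contig is a transcript sequence rebuilt from overlapping reads when no genome is used. Its identifier carries a c, a g and an i number, and a cluster is all contigs that have both the c and the g number in common. In de novo transcriptomes a cluster gathers contigs that share stretches of sequence, which can be splice forms, alleles, related gene copies or fragments of a transcript. Where contigs of a cluster go in opposite directions, a sum over the cluster hides what its parts do. The tables pair no contig with a gene name, so none is given a function here.

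Members were chosen on the same read counts that describe them below. Counts were divided by size factors of 0.885 (control), 1.13 (24 h), 1.15 (36 h) and 0.89 (72 h). A contig counted as higher at a duration when its scaled count plus 1 was at least 4 times that of the control, and as lower when it was at most 0.25 times, with at least 50 scaled counts in the control or at that duration. The opposite directions are therefore how the clusters were found and not a finding. With 1 library per condition there is no replicate error and no test, and the folds compare libraries. Their 95% intervals are exact (Clopper-Pearson) and cover counting error only. In RNA of whole thalli, fewer cells of a kind and less RNA per cell cannot be told apart.

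The libraries held between 52643595 and 74243310 reads on contigs. The 72 h library read 98649 contigs, against 81547 to 87832 in the others. The 37 clusters took 0.503% of the reads in the control, 0.724% at 24 h, 0.651% at 36 h and 1.18% at 72 h. A few clusters weighed heavily in these shares. The cluster c28151_g1 held 34.9% of the members' reads at 24 h, and c27712_g2 held 31.9% at 72 h. Without the leading cluster of each library the shares were 0.433%, 0.471%, 0.508% and 0.802% in the same order.

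Opposite directions within a cluster were rare. At 24 h, 14 clusters had contigs past 4-fold both ways, which was 0.183% of the 7657 clusters with at least 2 contigs of enough counts. At 36 h there were 11, or 0.144% of 7656, and at 72 h there were 19, or 0.229% of 8297. Over the durations this gave 37 clusters, or 0.432% of 8573, and 23 without the 72 h library. Clusters whose called contigs all went the same way were far more numerous. Of the 1309 clusters with at least 2 contigs past 4-fold at 24 h, 650 had higher contigs alone, 645 lower contigs alone and 14 (1.07%) had both. At 36 h the numbers were 567, 504 and 11 of 1082 (1.02%). At 72 h they were 1407, 463 and 19 of 1889 (1.01%). Contigs with nearly the same counts, described below, go the same way and can add to the clusters with 1 direction. How many they add was not tested.

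Of the 37 clusters, 30 met the rule at 1 duration and 7 at 2 durations. The former were 10 clusters at 24 h, 6 at 36 h and 14 at 72 h. The latter were c27508_g1 and c28151_g1 at 24 h and 36 h, c27937_g1 and c28142_g2 at 24 h and 72 h, and c27481_g3, c27628_g4 and c28004_g1 at 36 h and 72 h. These 7 are named to account for them all. None met it at all 3 durations. The clusters c27744_g1 and c27744_g2 shared their c number, and the other 35 each had a c number of their own among the members.

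The clusters were large. They held a median of 9 contigs (range 2 to 24), against a median of 4 (2 to 33) in the 8536 other clusters with enough counts. The share meeting the rule was greater in larger clusters. It was 2 of 3897 clusters with 2 or 3 contigs (0.0513%), 13 of 3328 with 4 to 7 (0.391%), 13 of 1278 with 8 to 15 (1.02%) and 9 of 70 with 16 or more (12.9%). Their summed scaled counts in the control had a median of 3747, against 1399 in the other clusters. The rule needs a higher and a lower contig, so a cluster with more contigs has more chances to meet it. A sum over more contigs can also be larger for that reason alone. Size and read depth thus moved with membership, and their part in it was not tested.

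**Figure D1:**
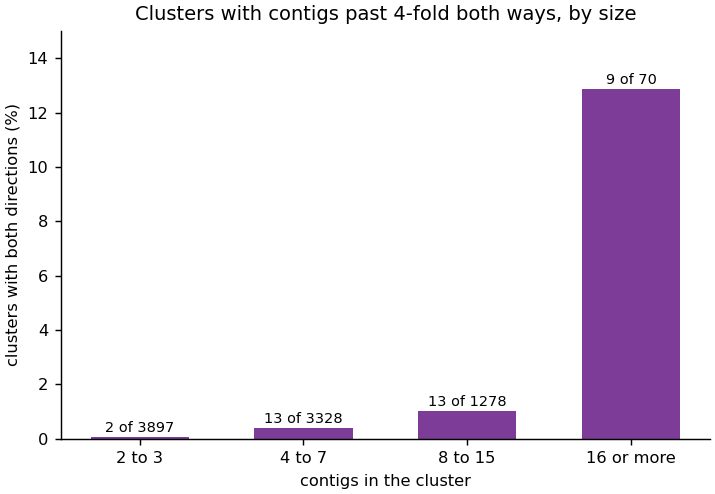
Share of clusters (%, vertical axis) that held contigs past 4-fold in both directions at a duration, by the number of contigs in the cluster; numbers above the bars are member clusters of all clusters with enough counts. The share went from 0.0513% at 2 or 3 contigs to 12.9% at 16 or more.

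Not all contigs of a member cluster took part. Of the 380 contigs, 123 were higher at 1 or more durations and lower at none, 102 were lower at 1 or more and higher at none, and 5 were higher at a duration and lower at another. The other 150 were past 4-fold at no duration, and 25 of these 150 had under 50 scaled counts in every library. At 24 h, 67 contigs were higher and 59 lower, of 331 with enough counts, while 8.66% and 7.9% of all contigs with enough counts were. At 36 h, 75 were higher and 56 lower, of 341, beside 7.37% and 6.64% of all contigs. At 72 h, 102 were higher and 52 lower, of 335, beside 16.2% and 5.93%. The rule used these comparisons, so nothing is read from the difference.

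Where a cluster met the rule at a duration, that case is counted on its own below, which gives 44 cases. They held 434 contigs with enough counts, of which 140 were higher, 86 lower and 208 neither. In 31 of the 44 cases at least 1 contig lay within 2-fold of the control, so that contigs above, below and near the control stood in the same cluster. In 4 cases every contig with enough counts was past 4-fold. A single contig stood on the higher side in 21 cases, a single contig on the lower side in 25, and 1 on each side in 11. The intervals of the strongest higher and the strongest lower contig both lay past 4-fold in 19 of the 44 cases, as a description, since the contigs were chosen at 4-fold on the same counts.

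**Figure D2:**
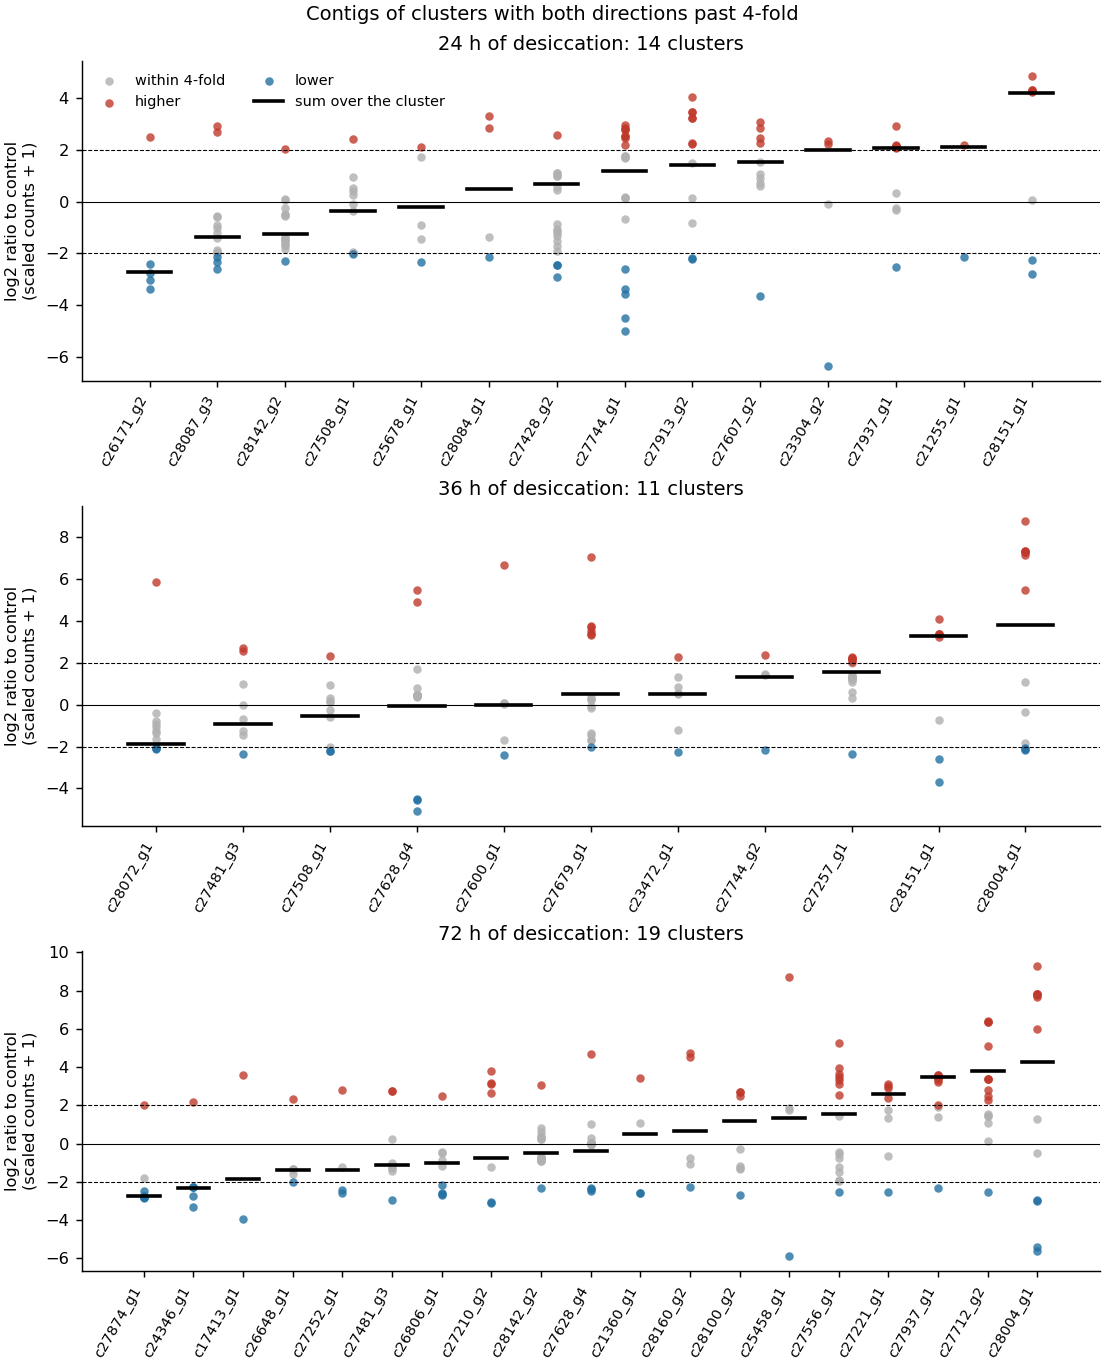
Log2 ratio to the control, computed on scaled counts plus 1 (vertical axis), of each contig with enough counts in the clusters meeting the rule at 24 h (14 clusters), 36 h (11) and 72 h (19); red points are higher, blue lower, grey within 4-fold, dashed lines mark 4-fold and black bars give the ratio of the cluster sums. Clusters are ordered by their sum, which ranged from -2.73 to 4.29, and members had sums above, near and below the control.

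Some contigs within a cluster had nearly the same counts in every library. In c26648_g1, 3 contigs had 6646 to 6663 reads in the control, 1571 to 1579 at 24 h, 6479 to 6516 at 36 h and 2691 to 2707 at 72 h. In each library these gaps were below the standard deviation of a Poisson count of that size, which was 81.6 in the control and 39.7 at 24 h. The sources used here do not say how a read matching several contigs was counted. Contigs within 5% of another of their cluster in all 4 libraries numbered 70 of the 380 (18.4%), in 20 of the 37 clusters. With such groups taken as 1, the 380 contigs came to 338. The numbers of higher and lower contigs above are therefore not numbers of separate transcripts, and the cluster sums can hold the same reads more than once.

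The sum over the cluster lay within 2-fold of the control in 4 of 14 cases at 24 h (28.6%). It did so in 6 of 11 cases at 36 h (54.5%) and in 5 of 19 at 72 h (26.3%). Among the other clusters with enough counts, 61.5% of 7643 lay within 2-fold at 24 h, 61.2% of 7645 at 36 h and 53.3% of 8278 at 72 h. Member clusters had to hold contigs past 4-fold on these same counts, and the other clusters did not. Nothing is therefore read from the difference. The shares of the members moved widely with the settings. Over all alternatives they went from 0% to 60.6% at 24 h, from 25% to 80.5% at 36 h and from 12.5% to 56.9% at 72 h. At 24 h the sum was over 2-fold higher in 7 member clusters and over 2-fold lower in 3, at 36 h in 4 and 1, and at 72 h in 7 and 7. The steadiest sums were those of c27600_g1 and c27628_g4 at 36 h, with log2 ratios of -0.04 and -0.06, both singled out after their values were seen.

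In c27600_g1 the contig c27600_g1_i3 had 0 reads in the control, 178 at 24 h, 115 at 36 h and 22 at 72 h. With 3 counts in place of the 0, the ratio of 36 h to the control was 29.6, without the counting error of the 115 reads. Its cluster partner c27600_g1_i2 had 91, 169, 21 and 365 reads in the same order and was 5.61-fold lower at 36 h (3.46 to 9.50). It stood above the control at 24 h and 72 h, so 36 h was its low point. Its contigs i4, i5 and i6 had nearly equal counts, with 138 to 141 reads in the control and 186 to 193 at 36 h.

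How much of a cluster's reads the moving contigs carried varied widely. The tables used here give no contig lengths, so shares are of reads and not of molecules. In the 44 cases the higher contigs together held a median of 3.65% of the scaled counts of their cluster in the control and 40.0% at the duration. The lower contigs held a median of 12.7% in the control and 1.28% at the duration. In 21 cases the lower contigs held more counts than the higher ones in the control and fewer at the duration, so that the larger side changed (7 at 24 h, 5 at 36 h and 9 at 72 h). The sides are the called contigs alone and can be minor parts of a cluster. In c28142_g2, which met the rule at 24 h, the higher contigs held 0.2% of the cluster in the control and the lower ones 0.21%. In 14 cases the higher contigs were the larger side in both libraries, and in 9 the lower contigs were. The direction of these shifts is fixed by how the contigs were chosen, and their size is the description.

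**Figure D3:**
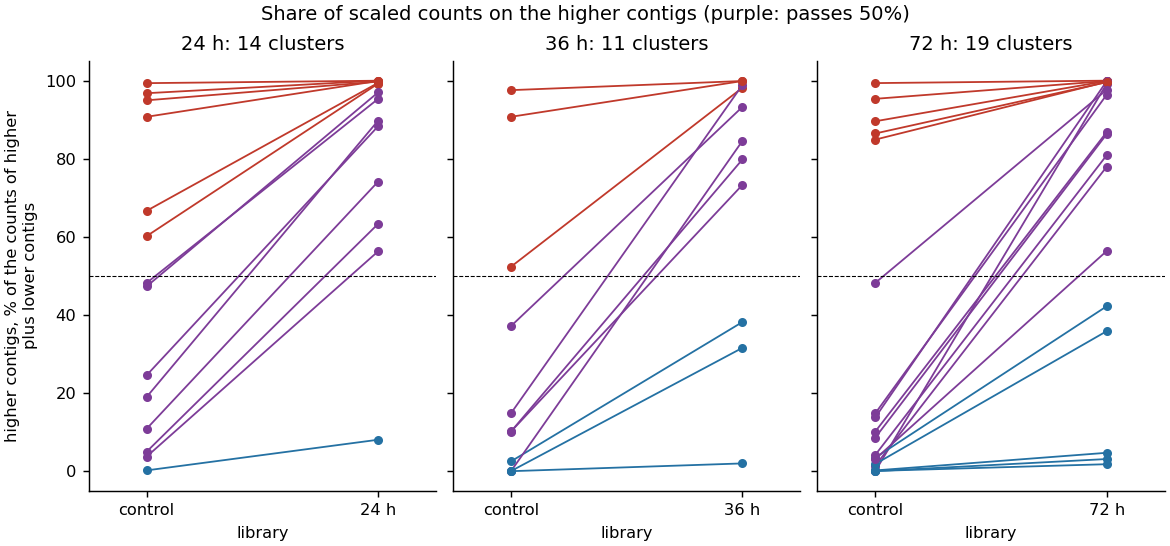
Share of the higher contigs in the scaled counts of the higher and lower contigs together (%, vertical axis) in the control and at the duration, 1 line per cluster at 24 h (14), 36 h (11) and 72 h (19). Purple lines pass 50% (21 cases), red lines lie above it in both libraries (14) and blue lines below it in both (9).

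The contig with most reads in each cluster was followed over the 4 libraries, with near-identical contigs taken as 1. The same contig led in all 4 libraries in 16 of the 37 clusters. In 6 clusters a contig led in the control and another in all 3 desiccated libraries. In 4 clusters the lead differed at 72 h alone and in 3 at 24 h alone, and the other 8 had further orders. Members were chosen on these counts for contigs that move apart, which can favour a change of lead. Leads were not followed in the other clusters, so nothing is read from these numbers. Some leads rest on few reads or on ties: in c24346_g1, counted among the 8, c24346_g1_i4 led in the control and at 24 h and tied with c24346_g1_i6 at 36 h (68 reads each) and 72 h (257 each).

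Clusters are ranked below by the weaker interval bound of their strongest higher and lower contigs, not by the size of the gap. At 24 h, the clusters with the strongest such bounds were c27607_g2 and c27744_g1. In c27607_g2, of 10 contigs, c27607_g2_i10 had 77 reads in the control, 829 at 24 h, 353 at 36 h and 195 at 72 h. It was 8.46-fold above the control at 24 h (6.69 to 10.8). The contig c27607_g2_i4 had 186, 18, 17 and 70 reads and was 13.1-fold below the control at 24 h (8.09 to 22.7). The higher contig peaked at 24 h, while the lower one was at its lowest at 24 h and 36 h and regained part of its level at 72 h. The other 3 higher contigs of the cluster had 46 to 135 reads in the control and 328 to 1240 at 24 h.

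The cluster c27744_g1 had the most contigs, 24, of which 8 were higher and 5 lower at 24 h. The contig c27744_g1_i3 had 54 reads in the control, 549 at 24 h, 525 at 36 h and 376 at 72 h, and was 7.99-fold higher at 24 h (6.03 to 10.8). It stayed up in all desiccated libraries. The contig c27744_g1_i19 had 52, 1, 49 and 20 reads in the same order. The control exceeded 24 h by a ratio of 66.2 (11.4 to 2663). It was nearly unread at 24 h and near its control level at 36 h. The summed cluster had 3703 scaled counts in the control, 8444 at 24 h, 9581 at 36 h and 13092 at 72 h, so the sum was higher than the control throughout while 5 contigs were lower at 24 h. In the control those 5 held 10.4% of the counts of the cluster, and at 24 h 0.35%.

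Clusters were also ranked by the smaller of the gain of a higher contig and the loss of a lower contig. This value does not show that counts passed between contigs. At 24 h it was largest in c27428_g2, followed by c28151_g1. In c27428_g2, of 18 contigs, c27428_g2_i16 had 2222 reads in the control, 515 at 24 h, 182 at 36 h and 455 at 72 h, and was 5.49-fold lower at 24 h (4.99 to 6.05). The contig c27428_g2_i6 had 185 reads in the control, 1401 at 24 h, 7 at 36 h and 59 at 72 h, and was 5.95-fold higher at 24 h (5.10 to 6.98). The pair thus parted at 24 h and lay below the control together at 36 h. The whole cluster had 41861 scaled counts in the control, 67523 at 24 h, 4282 at 36 h and 12228 at 72 h.

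In c28151_g1 a large gain stood beside a small loss. Its contig c28151_g1_i5 had 2212 reads in the control, 56258 at 24 h, 30030 at 36 h and 27474 at 72 h, and was 20.0-fold higher at 24 h (19.2 to 20.9). The contig c28151_g1_i8 had 469, 85, 46 and 164 reads and was 7.02-fold lower at 24 h (5.56 to 8.95). Higher contigs numbered 5 of the 8 and held 88.9% of the counts of the cluster in the control and 99.8% at 24 h. The 2 lower contigs went from 9.08% to 0.0825%, so here the lower contigs were the minor side from the start.

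At 36 h, c27628_g4 had the strongest interval bound. Its contig c27628_g4_i1 had 2448 reads in the control, 1862 at 24 h, 92 at 36 h and 439 at 72 h, and was 34.5-fold lower at 36 h (28.0 to 42.9). The contig c27628_g4_i2 had 1 read in the control, 2 at 24 h, 108 at 36 h and 48 at 72 h, which gave a ratio of 83.4 (14.7 to 3324) for 36 h over the control. The lower contig was lowest at 36 h and partly back at 72 h, and the higher one was nearly unread in the control and at 24 h. The 3 lower contigs of this cluster had held 31.9% of its counts in the control and 1.29% at 36 h, whereas the 2 higher ones reached 0.59%. The summed cluster changed little all the same, with 27619 scaled counts in the control, 27818 at 24 h, 26416 at 36 h and 21170 at 72 h.

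The second strongest bound at 36 h was in c28151_g1, named above for 24 h. Its contig c28151_g1_i4 had 514 reads in the control, 19284 at 24 h, 11292 at 36 h and 3477 at 72 h, and was 17.0-fold higher at 36 h (15.5 to 18.6). Against it, c28151_g1_i8 was 13.2-fold lower at 36 h (9.74 to 18.3). By the smaller of gain and loss, this cluster also ranked second at 36 h. The first was c28004_g1, where c28004_g1_i1 had 38 reads in the control, 3648 at 24 h, 7946 at 36 h and 8704 at 72 h. It was 161-fold higher at 36 h (118 to 228). In the same cluster c28004_g1_i4 had 833, 525, 253 and 19 reads and was 4.26-fold lower at 36 h (3.70 to 4.93). With upper-quartile scaling its log2 ratio was -1.98, short of 4-fold.

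At 72 h, c28004_g1 had the strongest bound of all 44 cases. The contig c28004_g1_i9 had 4 reads in the control, 1328 at 24 h, 2786 at 36 h and 3102 at 72 h. Its ratio of 72 h to the control was 771 (301 to 2831). The contig c28004_g1_i13 had 819, 503, 236 and 16 reads and was 51.5-fold lower at 72 h (31.5 to 90.5). The first had more reads in each longer desiccation and the second fewer. Of its 13 contigs, 7 were higher and 4 lower at 72 h, and the former went from 11.7% of the counts of the cluster to 99.1% while the latter went from 73.3% to 0.14%. The cluster sums, from the control to the longest desiccation, were 3043, 20971, 42611 and 59448 scaled counts.

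The next strongest bound at 72 h was in c25458_g1, of 4 contigs. Here c25458_g1_i4 was read in the 72 h library alone, with 368 reads there against 0 elsewhere. With 3 counts in place of the 0 in the control, the ratio of 72 h to the control was 122, without the counting error of the 368 reads. The exact interval of that ratio, with the 0 kept, started at 98.7. The contig c25458_g1_i3 had 229 reads in the control, 26 at 24 h, 7 at 36 h and 3 at 72 h. The control exceeded 72 h by a ratio of 76.8 (25.9 to 375). The other contigs of this cluster, c25458_g1_i1 and c25458_g1_i2, had 109 and 118 reads in the control, 10 and 11 at 24 h, 1 and 1 at 36 h, and 400 and 403 at 72 h. The cluster thus had 515 scaled counts in the control, 41.7 at 24 h, 7.85 at 36 h and 1319 at 72 h. The contig c25458_g1_i3, which led in the control, took almost no part in the 72 h level.

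At 72 h the smaller of gain and loss was largest in c27712_g2, followed by c28004_g1 with c28004_g1_i1 and c28004_g1_i4. In c27712_g2, of 16 contigs, c27712_g2_i11 had 400 reads in the control, 483 at 24 h, 402 at 36 h and 32828 at 72 h, and was 81.6-fold higher at 72 h (73.9 to 90.3). The contig c27712_g2_i15 had 1137, 320, 293 and 197 reads and was 5.81-fold lower at 72 h (4.99 to 6.79). The first was near the control until 36 h and stood out at 72 h alone, and the second was below the control at all durations. The 10 higher contigs held 67.4% of the counts of the cluster in the control and 95.3% at 72 h. The lower contig went from 7.83% to 0.0985%, so the higher contigs were the larger side in both libraries. The cluster sum was 224697 scaled counts at 72 h against 16411 in the control. In c28004_g1, c28004_g1_i1 was 228-fold higher at 72 h (166 to 322) and c28004_g1_i4 was 44.1-fold lower (28.1 to 73.6).

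**Figure D4:**
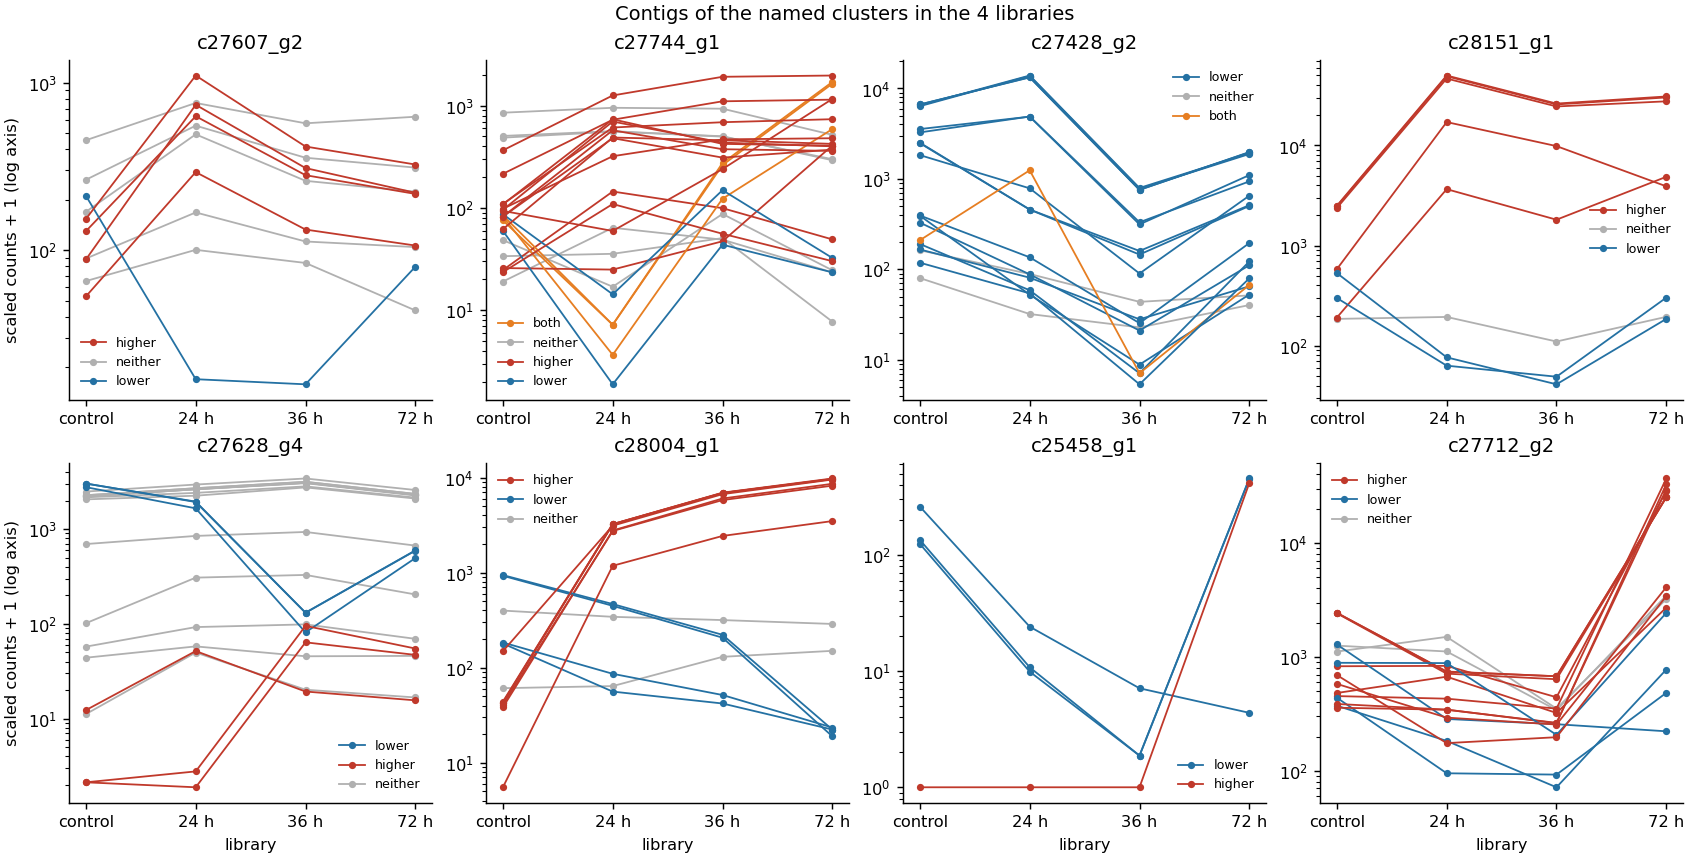
Scaled counts plus 1 (log axis) in the control and at 24 h, 36 h and 72 h of every contig of the 8 named clusters; a line joins the values of a contig, 1 library per point with no error bars, red for contigs higher at a duration, blue for lower, orange for both at different durations and grey for neither. In c28004_g1 the red lines pass above the blue ones by 24 h, while in c27628_g4 the uppermost grey contigs stay nearly level as the blue ones dip at 36 h.

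Contigs of 3 member clusters were past 4-fold in opposite directions at different durations, and the 2 clusters with the strongest interval bounds are given here. In c27744_g1, c27744_g1_i12 had 74 reads in the control, 7 at 24 h, 314 at 36 h and 1518 at 72 h. It was 13.5-fold lower at 24 h (6.21 to 34.6) and 20.4-fold higher at 72 h (16.1 to 26.1). In c27428_g2, c27428_g2_i6, with the reads given above, was 5.95-fold higher at 24 h and 34.2-fold lower at 36 h (16.3 to 86.3). Of all 105451 contigs, 91 did so at any durations, of which 5 were members.

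At the other durations the contigs chosen at a duration are given side by side, since the 3 comparisons share the control library. The strongest higher contigs of the 14 clusters at 24 h had a median log2 ratio of 2.74 at 24 h, 2.34 at 36 h and 2.48 at 72 h, and the strongest lower contigs had -2.55, -0.84 and -1.52. For the 11 clusters at 36 h the higher contigs had 2.68 at 24 h, 4.08 at 36 h and 2.75 at 72 h, and the lower ones -1.05, -2.26 and -1.76. For the 19 clusters at 72 h the higher contigs had 0.38 at 24 h, 1.59 at 36 h and 3.44 at 72 h, and the lower ones -1.84, -1.98 and -2.57. The median is furthest from 0 at the duration of choice in each of the 6 sets, where choice moves it outward.

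The desiccated libraries can be set against each other, a contrast the rule did not use, though it shares their counts. Between 24 h and 36 h, 1 of the 34 member clusters with enough counts, c27628_g4, had contigs past 4-fold both ways, beside 0.0264% of all clusters with enough counts. Between 24 h and 72 h there were 2 of 36, c27913_g2 and c28151_g1, beside 0.0968%. Between 36 h and 72 h there was 1 of 36, c27744_g1, beside 0.0367%. These 4 are named after their values were seen. The selection of members on wide gaps in the same libraries can raise these numbers, and that was not tested. Among member contigs with enough counts, 9.57% were higher and 6.79% lower at 36 h than at 24 h (all contigs 3.99% and 3.48%), 17.2% and 5.85% at 72 h than at 24 h (13.5% and 4.1%), and 19.8% and 3.04% at 72 h than at 36 h (11.7% and 1.18%). In 19 of the 37 clusters no contig was past 4-fold between 24 h and 36 h. In 14 none was between 24 h and 72 h, and in 14 none was between 36 h and 72 h. The 37 include clusters without enough counts for these contrasts. The share over all clusters was not computed, so nothing is read from these numbers.

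The authors' deposited tables mark contigs as up or down for 5 pairs of libraries. In the authors' deposited table of 24 h against the control, 35 member contigs were up and 22 down, beside 1.64% and 1.33% of all contigs. For 36 h the authors' deposited table had 44 up and 30 down (all contigs 1.5% and 0.895%), and for 72 h the authors' deposited table had 46 up and 11 down (2.68% and 0.54%). Clusters with contigs of both statuses numbered 1 at 24 h, 2 at 36 h and 2 at 72 h in the authors' deposited tables against the control, over all contigs, or 0.0092%, 0.0184% and 0.0184% of the clusters with at least 2 contigs. All 5 were members: c27607_g2 at 24 h, c27628_g4 and c28151_g1 at 36 h, and c25458_g1 and c28004_g1 at 72 h. They are the clusters named above for their interval bounds, other than c27744_g1. The statuses rest on the same reads and the same comparisons with the control as the rule, so nothing is read from this overlap. In the authors' deposited table of 72 h against 36 h, 2 clusters had contigs of both statuses, of which 0 were members. For 72 h against 24 h there were 0.

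At an adjusted p-value under 0.05 the authors' deposited tables against the control called 6 member contigs at 24 h, 8 at 36 h and 10 at 72 h. These were 1.58%, 2.11% and 2.63% of the member contigs, beside 0.498%, 0.392% and 0.523% of all contigs. The rule used the same counts, so nothing is read from the difference. Each of the 6 belonged to c28004_g1 and was higher, as were 7 of the 8 at 36 h. The only lower contig was c27628_g4_i1 at 36 h, with an adjusted p of 0.0243 in the authors' deposited table. At 72 h the authors' deposited table called 7 contigs of c28004_g1 and 3 of c27712_g2, all higher. The authors' deposited table of 72 h against 24 h had 33 member contigs up and 9 down (all contigs 2.52% and 0.526%). At that threshold it called 11 member contigs (2.89%, beside 0.601% of all contigs). The authors' deposited table of 72 h against 36 h had 44 up and 2 down (2.68% and 0.284%). At that threshold it called 19 member contigs (5%, beside 0.989% of all contigs), all higher at 72 h. No member cluster thus had contigs called both ways at this threshold. No replicate measured the spread behind these p-values.

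At the edge of the 4-fold threshold, the members just inside were c27874_g1 and c26648_g1, both at 72 h. The weaker side of c27874_g1 was c27874_g1_i4, 4.01-fold higher on scaled counts plus 1, and that of c26648_g1 was c26648_g1_i2, 4.07-fold lower. Just outside were c27475_g1 at 72 h, where c27475_g1_i2 (6618 control reads, 1665 at 72 h) missed the threshold narrowly beside c27475_g1_i1 at 39.7-fold higher, and c28091_g3 at 24 h, where c28091_g3_i1 was 3.95-fold lower beside c28091_g3_i2 at 4.05-fold higher. Membership of clusters near the threshold therefore turns on a few reads. With 8-fold on each side, 7 of the 37 clusters met the rule: c27607_g2 at 24 h, c27628_g4 and c28151_g1 at 36 h, and c17413_g1, c25458_g1, c27210_g2 and c28004_g1 at 72 h.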

How the data were processed

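Reads were trimmed with cutadapt, aligned with Bowtie2 and compared with DESeq, per the submitters' processing notes. The sources used here name no versions and no assembler, and do not say how a read matching several contigs was treated. Each of the 5 tables holds read counts per contig, deposited by the authors and not normalized. The authors deposited a signal with each count, named a base mean per the file headers, whose values are the count divided by a constant per library and pair. The authors also deposited a fold change as a linear ratio, p-values before and after adjustment, and a mark of up or down. Where several tables repeat a library, its counts matched exactly in 6 of 6 columns, and 0 columns of per-sample values were left out.

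Size factors for all 4 libraries were computed jointly by the median of ratios, with Python 3.11.15, numpy 2.4.6 and pandas 2.3.3. Ratios were taken on scaled counts plus 1, and intervals with scipy 1.17.1. For a count of 0, a ratio used 3 counts in the library at 0 and left out the counting error of the other count. Scaling by library totals, with a log2 shift in size factor relative to the control of 0.15 at 24 h, by the upper quartile, with shifts of -0.10 at 36 h and 0.18 at 72 h, and by TMM (edgeR 4.0.16) were alternatives, with other minimums, pseudocounts and thresholds. The calculation was tested on simulated data.

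The members and lists were chosen with earlier results of these data known. Contigs were named by a written rule: per duration, the 2 clusters with the strongest interval bound and the 2 with the largest value of the smaller of a higher contig's gain and a lower contig's loss, the 2 clusters meeting the rule at all 3 durations (there were none), the 2 with a contig past 4-fold in opposite directions at different durations, the largest cluster and those at the threshold. Gene lists could not be applied, as no contig is paired with a gene. No test was run, with 1 library per group, and intervals cover counting error only.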

Additional observations from a re-analysis of the deposited data

Results flagged for a closer look

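In the member clusters 5 contigs were past 4-fold above the control at a duration and past 4-fold below it at another, so their difference from the control changed direction with the length of desiccation. With 1 library per duration the difference between durations was not tested. On the log2 scale of ratios to the control, c27744_g1_i12 lay 7.89 higher at 72 h than at 24 h, c27744_g1_i1 7.83 and c27744_g1_i18 7.33. These 3 belong to the same cluster, and whether they share reads was not tested. The contig c27744_g1_i1 had 66 reads in the control, 7 at 24 h, 300 at 36 h and 1460 at 72 h, and c27744_g1_i18 had 72, 3, 140 and 525. The contig c27428_g2_i6 lay 7.45 higher at 24 h than at 36 h. The contig c28084_g1_i4 lay 4.63 higher at 72 h than at 36 h, with 184 reads in the control, 91 at 24 h, 58 at 36 h and 1136 at 72 h.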

How the results depend on the processing

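No paired analysis was possible because each condition has 1 library, and for the same reason no replicate could be left out. With scaling by library totals, the upper quartile or TMM there were 38 clusters, of which 35, 34 and 36 were among the 37, and with pseudocounts of 0.5 and 5 there were 37 and 32. Upper-quartile scaling put 47.4% of the sums within 2-fold at 72 h, where it shifts all ratios, and a pseudocount of 5 put 18.2% at 24 h; the cause was not tested. A minimum of 200 scaled counts left 6 clusters at 24 h, 4 at 36 h, 8 at 72 h and 16 in all, with 25% of the sums within 2-fold at 36 h and 12.5% at 72 h, and no minimum gave 23, 18 and 30, with 17.4% at 24 h. At 2-fold there were 71, 87, 102 and 180 clusters, with 60.6% of the sums within 2-fold at 24 h and 56.9% at 72 h, and at 8-fold 1, 2, 4 and 7, with 0% at 24 h. These minimums and thresholds admit more or fewer contigs by construction; what moved the shares was not tested. Some alternatives were chosen after seeing the data. Contigs holding at least 5% of their cluster left 8, 6, 9 and 21 clusters. The authors' deposited scaled values gave 32 clusters, 31 of them among the 37. With each group of near-identical contigs averaged to 1 contig, 31.6% of the sums lay within 2-fold at 72 h. Removal of the 72 h library left 23 clusters. Of 140 values of named contigs under other scalings and pseudocounts, 133 stayed within their counting interval and 7 did not. With a pseudocount of 5, the log2 ratio of c27744_g1_i19 at 24 h went from -4.98 to -3.44. That of c25458_g1_i4 at 72 h went from 8.70 to 6.39. No direction could change, since the scalings shifted log2 ratios by at most 0.18 and a pseudocount keeps their sign. The contig c28004_g1_i4 at 36 h was no longer past 4-fold with upper-quartile scaling (-1.98). Depth limits folds that rest on few reads, such as that of c27628_g4_i2, with 1 read in the control and an interval of 14.7 to 3324.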
